A study of Oryza sativa with 80 samples.

Results

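The 200 genes described here come from leaves that met neither drought nor heat. They had the largest rise from base to tip in the leaf pool where each rose least. They were chosen from 42189 genes in the raw count table, by values alone. In the unstressed leaves, called W30, each library's counts were scaled to its total to give CPM, so that libraries of unlike depth can be set side by side. For each of the 4 leaf pools, log2((CPM + 0.5 in segment 6)/(CPM + 0.5 in segment 2)) was taken. The 15854 genes with a mean of at least 2 CPM in W30 segment 6 were ranked by the smallest of their 4 values, and the 200 highest are the members. Segment 6 against segment 2 in W30 is therefore a description and carries no test.

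A grass leaf grows from its base, so that cells near the tip are the oldest and cells near the base the youngest. Along this axis cells finish expanding, build their chloroplasts and turn from importing sugar to exporting it, and the tip is also the first part to age. Transcript levels that climb towards the tip are therefore commonly read along a developmental axis, even in a blade that has stopped elongating. The files give locus identifiers of the MSU kind without gene names. The reference table used here named 0 of the 200 members, so loci are given by identifier and no function is attached to them.

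The study measured poly(A) RNA in the third leaf, fully elongated, of seedlings of rice (Oryza sativa), and its title concerns how growth-limiting drought changes the sensitivity of leaves to heat. D30 leaves grew at 1.5 g water per g dry soil and were collected at 30 °C, W40 leaves grew at 3 g/g and met 40 °C for 30 min, D40 leaves met both, and W30 leaves met neither. Leaves reached full length at 12 days in drought soil and at 10 days in wet soil, and were collected then, so that leaf age and soil water cannot be told apart. Each blade was cut into 7 equal lengths of which 2 to 6, counted from the base, were sequenced, so the extreme ends are absent. Every treatment had 4 leaf pools, each of matched segments from 3 leaves, which gives 80 libraries from 16 pools. Values below follow replicates 1 to 4 in that order. Replicates 1 and 2 belonged to the labelled batch 1 and replicates 3 and 4 to batch 2, except that W40 had only replicate 1 in batch 1. Library totals ran from 53398019 to 128636996 counts. With no named loci, the leaf tissue could not be checked against marker genes.

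Along the 5 segments of W30, whose ends chose the members, the means are given as a description. Of the 200, 194 had their highest mean in segment 6 and 6 in segment 5. Means climbed at every step from segment 2 to segment 6 in 178 members, and in 15.7% of the ranked genes, from which nothing is read since the rule used these pools. Summed over members, the level in W30 segment 6 was 5964, 5849, 13020 and 10519 CPM, against 2612, 2589, 5265 and 4702 CPM in W30 segment 2. Each pool was higher at the tip, while the libraries of batch 2 stood about as far above those of batch 1 in either segment as the tip stood above the base. Single members averaged between 2.04 and 984.6 CPM in W30 segment 6, with a median of 15.7 CPM, close to the 16.5 CPM of all ranked genes.

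The first of the list was LOC_Os03g13050, with 2.71, 9.34, 12.4 and 6.72 CPM in W30 segment 6, against 0.0814, 0.770, 1.60 and 0.999 CPM in W30 segment 2. Its smallest log2 ratio over the 4 pools was 2.27. LOC_Os04g32920 came second with 2.01, and had 33.5, 104, 72.1 and 74.4 CPM in segment 6, against 2.62, 25.6, 3.31 and 11.2 CPM in segment 2. LOC_Os08g39840 followed with 1.90, and had 3.92, 50.3, 51.9 and 59.7 CPM in segment 6, against 0.583, 13.1, 1.65 and 3.96 CPM in segment 2. Pool 1 stood far below the other pools at the tip for LOC_Os08g39840, and each of the 4 was higher at the tip than at the base. The next 7, from LOC_Os05g51040 to LOC_Os02g30770, had smallest ratios between 1.59 and 1.89. The list ended without a gap, since LOC_Os07g06450 and LOC_Os02g02860, the last inside, and LOC_Os07g38150 and LOC_Os02g40200, the first outside, all had a smallest ratio of 0.67. LOC_Os07g06450 illustrates a member at this limit, with 352, 229, 323 and 279 CPM in segment 6, against 213, 144, 162 and 149 CPM in segment 2.

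**Figure D1:**
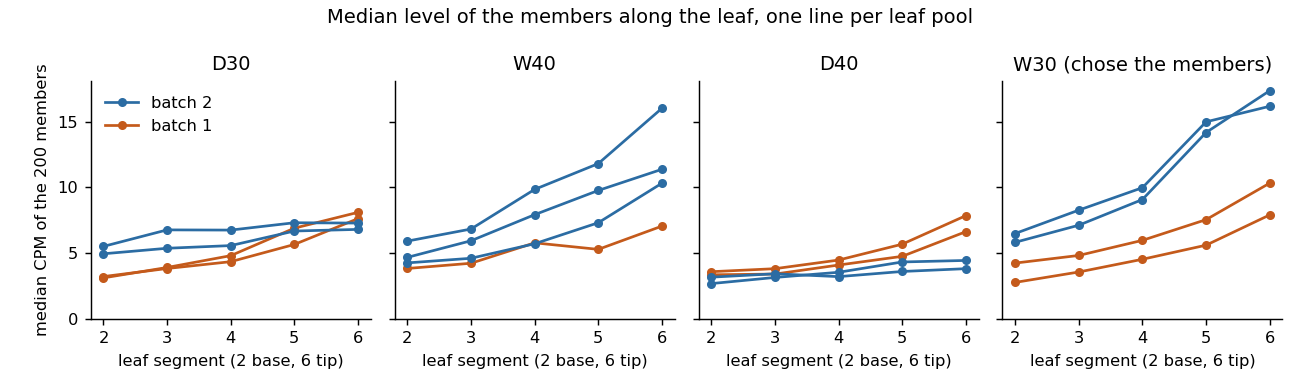
Median CPM over the 200 members (y axis) in leaf segments 2 to 6 (x axis), with 1 line per leaf pool coloured by labelled batch, in D30, W40, D40 and W30. Segment 6 lay between 3.81 and 7.84 CPM in D40 and between 7.05 and 16.01 CPM in W40, and in D40 the batch 2 lines climbed less than those of batch 1.

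The climb towards the tip was present in all 3 stressed treatments, whose libraries played no part in the choice of members. The tests fitted all 80 libraries together, so the W30 libraries that chose the members shared in the estimate of spread. In D30, 163 of the 200 members were higher in segment 6 than in segment 2 and 1 was lower (edgeR quasi-likelihood test, adjusted p under 0.05), against 10.2% of all genes called higher and 8.38% called lower. In W40, 165 were higher and 0 lower, where 18.2% of all genes were higher and 16.9% lower. At an unadjusted p under 0.05, W40 had 170 members called in either direction. The share of all genes at that limit was not taken. DESeq2 also called 0 members lower in W40, where 17.7% of all genes were lower. In D40, 155 were higher and 1 was lower, where 13.8% of all genes were higher and 10.6% lower. The median log2 change of the members was 0.79 in D30, 0.89 in W40 and 0.86 in D40, and that of all genes tested was 0.00066, 0.011 and 0.0097 in the same order. These 3 comparisons contrast no library in common. In all of them 123 members, or 61.5%, were called higher, where 4.53% of all genes were. Another 45 were called higher in exactly 2, 24 in exactly 1 and 8 in none. Counted without a test, segment 6 exceeded segment 2 in all 4 pools for 130 members in D30, 169 in W40 and 118 in D40, against 18.9%, 29.6% and 16.2% of the ranked genes.

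Steepness in the unstressed leaf carried over in part. The 50 members ranked highest in W30 had median log2 changes of 1.35 in D30, 1.75 in W40 and 1.57 in D40, while the 50 ranked lowest had 0.62, 0.62 and 0.73. The number called higher differed little between these ends of the list, with 40, 44 and 41 of the first 50 and 43, 38 and 44 of the last 50. Median steps between neighbouring segments, from means over both batches, are given as a description, and differences between them were not tested. In W40 the largest was into segment 4, at log2 0.35, with 0.31 into segment 6. In D30 it was into segment 5, at 0.30, with 0.21 into segment 6. In D40 it was into segment 6, at 0.30, with 0.21 into segment 4. The segment with the highest mean was still segment 6 for 174 members in D30, 188 in W40 and 162 in D40.

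The slope in drought leaves differed between the labelled batches. Per pool, the median log2 ratio of the members in D30 was 0.45 and 0.36 in batch 2, and 1.03 and 0.94 in batch 1. D40 gave 0.40 and 0.19 in batch 2, and 0.96 and 1.18 in batch 1. In W40 it was 0.86, 0.90 and 0.86 in batch 2, and 0.86 in the single pool of batch 1. In D30 the medians of all ranked genes differed the same way by less, at -0.04 and -0.17 in batch 2 and 0.14 and 0.14 in batch 1. A test of the batch difference, chosen after the data had been seen, called the change lower in batch 2 for 61 members in D40, where 5.63% of all genes were called so, and higher for 2, where 4.63% were. In D30 it called 27 lower and 6 higher, against 3.26% and 4.41% of all genes, and in W40 22 lower and 18 higher, against 6.64% and 5.25%. Within batch 2 alone, 110 members were called higher in segment 6 in D30, 162 in W40 and 78 in D40, where 11.4%, 18.9% and 8.23% of all genes were. Within batch 1 alone the counts were 146 in D30, 107 in W40 from its single pool, and 157 in D40, where 8.49%, 5.97% and 13.7% of all genes were. Because the rule required a large ratio in each W30 pool, a batch difference in W30 cannot be read from these genes.

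**Figure D2:**
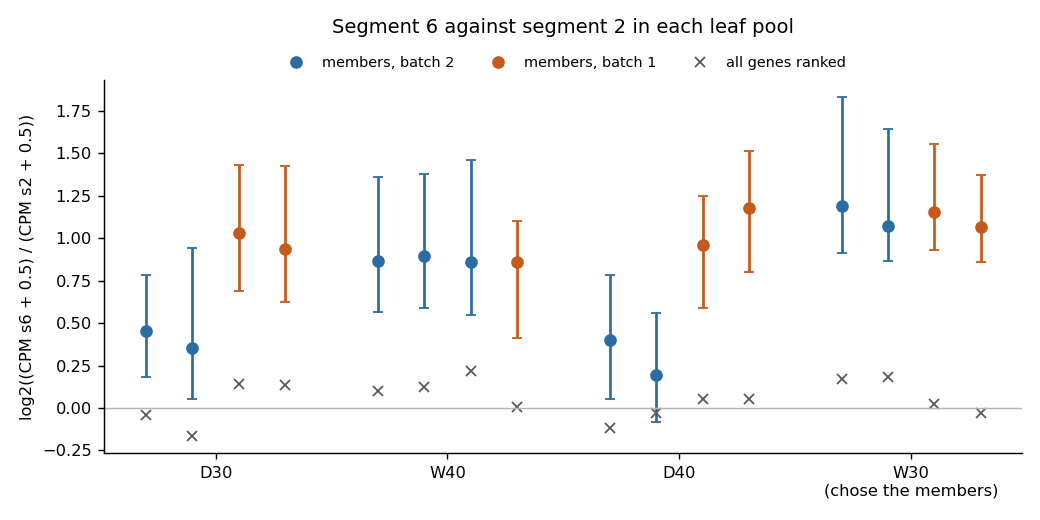
Log2((CPM + 0.5 in segment 6)/(CPM + 0.5 in segment 2)) in each of the 16 leaf pools (y axis), with the pools of batch 2 left of those of batch 1 within D30, W40, D40 and W30. Points are medians of the 200 members with their quartiles as bars, coloured by batch, and crosses are medians of all 15854 ranked genes; the 2 lowest points are the batch 2 pools of D40 and D30 with medians of 0.19 and 0.36.

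Among members with at least 5 CPM and segments that did not overlap, LOC_Os01g72490 climbed steeply in D30. It had 13.7, 12.4, 11.3 and 10.5 CPM in D30 segment 6, against 3.40, 2.84, 1.46 and 1.85 CPM in D30 segment 2 (log2 change 2.40 ± 0.26 SE, edgeR adjusted p = 6.13e-10). All tip libraries lay well above all base libraries in either batch. LOC_Os05g33900 did so in D40, with 41.3, 54.3, 23.3 and 39.7 CPM in segment 6, against 6.76, 9.11, 9.15 and 5.05 CPM in segment 2 (log2 change 2.50 ± 0.34 SE, edgeR adjusted p = 1.57e-07). Its change was similar in the batches, at log2 2.43 in batch 2 and 2.54 in batch 1. Under the same limits of 5 CPM and no overlap, LOC_Os02g52010 was among the steepest in both heated treatments. In W40 it had 7.21, 27.5, 33.8 and 52.9 CPM in segment 6, against 1.72, 3.39, 6.83 and 5.52 CPM in segment 2 (log2 change 2.59 ± 0.32 SE, edgeR adjusted p = 7.47e-09). In D40 it had 7.15, 7.22, 33.3 and 13.0 CPM in segment 6, against 3.98, 2.42, 5.05 and 6.50 CPM in segment 2 (log2 change 1.58 ± 0.32 SE, edgeR adjusted p = 1.32e-04). The base and tip did not overlap in either treatment, although replicate 4 of D40 rose less than replicate 3 of the same batch. LOC_Os07g12890 had 25.8, 16.9, 31.4 and 28.9 CPM in W40 segment 6, against 13.3, 0.934, 1.38 and 1.04 CPM in W40 segment 2 (log2 change 3.47 ± 0.57 SE, edgeR adjusted p = 3.28e-06). Here the batch 1 pool was already high at the base, and the change was log2 4.35 in batch 2 and 0.96 in batch 1.

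LOC_Os09g32290 shows how 1 pool can carry a mean. It had 4.38, 82.3, 2.51 and 1.46 CPM in D30 segment 6, against 0.758, 1.12, 0.612 and 0.130 CPM in D30 segment 2 (log2 change 3.70 ± 0.60 SE, edgeR adjusted p = 7.22e-06). Replicate 2 was many times above the others at the tip, and each pool was still higher at the tip. The same locus had 6.11, 76.5, 0.459 and 0.461 CPM in D40 segment 6, against 4.40, 4.49, 0.131 and 0.243 CPM in D40 segment 2 (log2 change 2.06 ± 0.58 SE, edgeR adjusted p = 0.00587). Without replicate 2 of D40 the log2 change was 0.87 with an edgeR adjusted p of 0.380, so that this call rested on that pool.

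The largest fitted changes belonged to loci almost silent at the base. LOC_Os03g13050 had 1.77, 2.45, 0.267 and 0.321 CPM in D40 segment 6, against 0, 0.0142, 0.00938 and 0 CPM in D40 segment 2 (log2 change 7.25 ± 0.91 SE, edgeR adjusted p = 1.96e-08). LOC_Os11g19240 had 0.580, 1.98, 0.235 and 0.701 CPM in D40 segment 6, against 0.0621, 0.0284, 0 and 0 CPM in D40 segment 2 (log2 change 5.57 ± 0.96 SE, edgeR adjusted p = 1.22e-05). In both loci the base stayed under 0.1 CPM in each D40 library, so the size of the fitted change depends on the prior count. LOC_Os03g13050 kept its climb elsewhere, with 2.09, 1.57, 4.49 and 2.77 CPM in D30 segment 6, against 0.0632, 0.0554, 0.629 and 0.272 CPM in D30 segment 2 (log2 change 4.03 ± 0.56 SE, edgeR adjusted p = 3.15e-07). In W40 it had 1.61, 11.4, 5.37 and 7.44 CPM in segment 6, against 0, 0.962, 0.646 and 0.388 CPM in segment 2 (log2 change 4.12 ± 0.54 SE, edgeR adjusted p = 2.66e-08).

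One member was called lower at the tip in drought leaves. LOC_Os04g54310, at rank 30 in the unstressed leaf, had 0.0283, 0.204, 0.800 and 1.19 CPM in D40 segment 6, against 0.451, 0.412, 1.58 and 1.56 CPM in D40 segment 2 (log2 change -1.03 ± 0.31 SE, edgeR adjusted p = 0.00976). In D30 it had 0.392, 0.341, 0.750 and 0.614 CPM in segment 6, against 0.616, 0.817, 1.29 and 1.50 CPM in segment 2 (log2 change -0.96 ± 0.29 SE, edgeR adjusted p = 0.0148). Every pool of both treatments was lower at the tip, and no other member was called lower in D30 or D40. Without replicate 1 the D40 change was -0.67 with an edgeR adjusted p of 0.132, and without replicate 2 or replicate 4 the D30 call had an adjusted p of 0.0738 or 0.0849. In W30, where it was chosen, it had 1.50, 16.04, 7.43 and 7.47 CPM in segment 6, against 0.393, 3.61, 2.42 and 2.80 CPM in segment 2. Low fitted slopes that did not pass the test include LOC_Os04g39010, which had 6.01, 5.13, 0.107 and 0.240 CPM in D40 segment 6, against 5.07, 4.68, 0.319 and 0.392 CPM in D40 segment 2 (log2 change -0.33 ± 0.33 SE, edgeR adjusted p = 0.510). Its D40 libraries split by batch, and the tip was higher than the base in both batch 1 pools and lower in both batch 2 pools. LOC_Os01g47900 had the lowest fitted D40 change, at log2 -1.28 with an edgeR adjusted p of 0.207, from levels under 0.3 CPM in each of the libraries compared.

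Between the middle segments of the unstressed leaf, 80 members were higher in segment 5 than in segment 3 and 0 were lower, where 2.2% of all genes were higher and 1.56% lower. The fitted change was above 0 for all 200, with a median of log2 0.61 against 0.016 for all genes. In edgeR 173 had an unadjusted p under 0.05, and the share of all genes at that limit was not taken. DESeq2 called 102 higher and 0 lower, where 2.57% and 2.62% of all genes were. These libraries were not used to choose the members but came from the same leaf pools, so the comparison is not independent of the choice. LOC_Os01g55750 had 28.7, 31.2, 19.4 and 19.7 CPM in W30 segment 5, against 13.2, 15.2, 10.2 and 10.8 CPM in W30 segment 3 (log2 change 0.91 ± 0.12 SE, edgeR adjusted p = 1.91e-06). LOC_Os01g07590 had 45.4, 47.6, 83.8 and 70.8 CPM in segment 5, against 23.6, 28.4, 42.2 and 42.6 CPM in segment 3 (log2 change 0.78 ± 0.16 SE, edgeR adjusted p = 0.00252). In both loci the segments did not overlap. The count was 26 without replicate 3 of W30 and 40 without replicate 4.

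More members were lower in drought-grown leaves than were higher. The members had to reach 2 CPM in W30 segment 6 and rise towards it, while the genes tested did not. The excess of lower calls is therefore not independent of the choice. At the tip of heated leaves, 35 members were lower in D40 than in W40 and 3 were higher, where 5.87% of all genes were lower and 7.05% higher. That is 17.5% of the members lower and 1.5% higher. In segment 5 of leaves kept at 30 °C, 26 members were lower in D30 than in W30 and 6 were higher, where 3.1% of all genes were lower and 4.03% higher. That is 13.0% lower and 3.0% higher. The median log2 change of the members was -0.34 in D40 against W40 and -0.39 in D30 against W30, and that of all genes was 0.0037 and 0.0046 in the same order. The comparison at 40 °C has no library that chose the members on either side. Its fit still shared the spread and the batch term with the W30 libraries of segment 6, which did choose them. The W30 libraries of segment 5 came from the same pools. The comparisons share no library, and 18 members (9.0%) were lower in both, 2 (1.0%) were higher in both and 0 moved in opposite directions. Over the 21702 genes tested in both, 1.31% were lower in both, 2.10% were higher in both and 1 gene moved in opposite directions. The 18 are 51.4% of the members lower at 40 °C and 69.2% of those lower at 30 °C, against 22.2% and 41.9% for all genes.

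More members were called in batch 2. Within batch 2 alone, 93 members were lower in D40 than in W40 and 19 higher, where 18.5% and 20.7% of all genes were, and 91 were lower in D30 than in W30 and 11 higher, where 8.72% and 14.5% were. Within batch 1 alone, 1 member was lower and 1 higher in D40 against W40, with a single W40 pool, where 0.43% and 0.102% of all genes were. In D30 against W30, batch 1 alone gave 12 members lower (6.0%) and 5 higher (2.5%), where 1.35% and 1.63% of all genes were. In batch 2 the median change of the members was -0.54 at 40 °C and -0.69 at 30 °C, and in batch 1 it was -0.12 and 0.12. Leaving out D40 replicate 4 or 3, or W40 replicate 3 or 4, gave 12, 14, 20 or 22 members lower at 40 °C. Without W40 replicate 1 or D40 replicate 1, 12 or 5 members were higher at 40 °C, and without W30 replicate 4, 17 were lower at 30 °C. In bulk tissue, fewer cells of a type and less RNA per cell cannot be told apart.

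**Figure D3:**
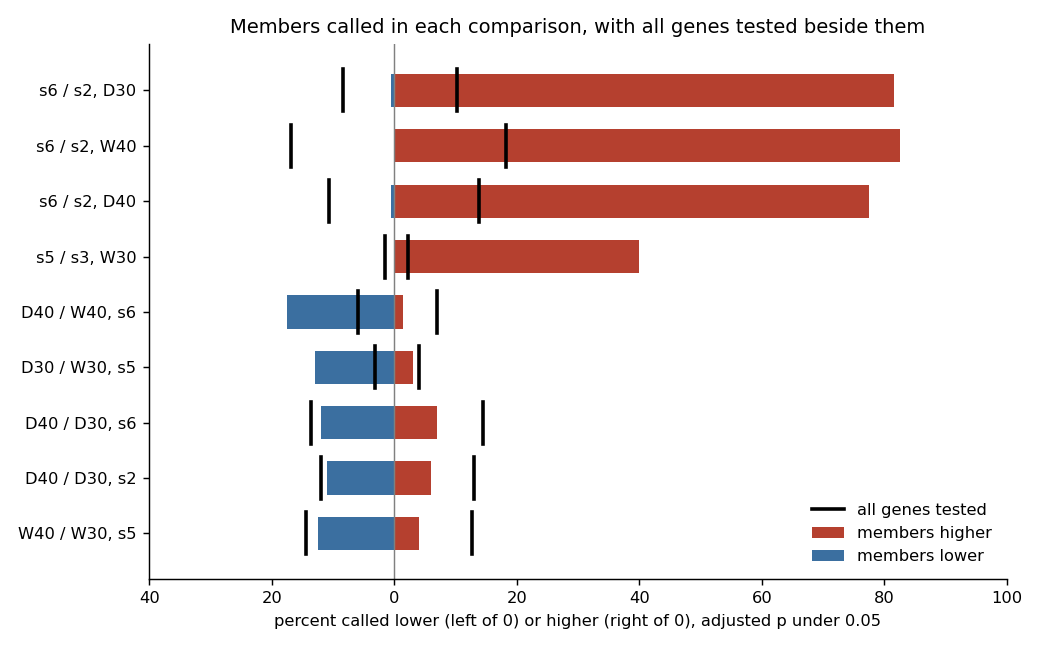
Percent of the 200 members called higher (red, right of 0) or lower (blue, left of 0) at an edgeR adjusted p under 0.05 in 9 comparisons, with black ticks for the percent of all genes tested. The members' bars pass the ticks for higher calls in the 4 comparisons between segments and for lower calls in both drought comparisons, at 17.5% and 13.0%.

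In both drought comparisons, 10 of the 200 members were lower by log2 3 or more, a limit chosen after the values had been seen. Over all genes tested in both, 73 of 21702 were, or 0.336%. Those genes did not have to reach 2 CPM in W30 segment 6 as the members did, so the shares are not of like genes. They included LOC_Os04g32920 and LOC_Os08g39840, which stand directly below the first of the list. LOC_Os04g32920 had 1.91, 2.84, 1.00 and 0.451 CPM in D40 segment 6, against 5.64, 25.8, 67.6 and 57.8 CPM in W40 segment 6 (log2 change -4.62 ± 0.75 SE, edgeR adjusted p = 0.00298). In segment 5 it had 0.452, 0.938, 3.25 and 0.879 CPM in D30, against 27.1, 86.6, 42.8 and 60.2 CPM in W30 (log2 change -5.44 ± 0.84 SE, edgeR adjusted p = 0.00150). No drought library reached the lowest well-watered one in either comparison. LOC_Os08g39840 had 0.834, 0.392, 0 and 0 CPM in D40 segment 6, against 4.53, 14.8, 60.7 and 41.4 CPM in W40 segment 6 (log2 change -6.23 ± 1.29 SE, edgeR adjusted p = 0.00989). In segment 5 it had 0.196, 0.138, 0.464 and 0.0586 CPM in D30, against 4.52, 42.5, 34.9 and 43.3 CPM in W30 (log2 change -7.26 ± 1.15 SE, edgeR adjusted p = 0.00171).

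LOC_Os01g04800 followed the same course, with 0.302, 0.165, 0.166 and 0.147 CPM in D30 segment 5, against 5.33, 29.8, 30.4 and 38.8 CPM in W30 segment 5 (log2 change -7.10 ± 1.09 SE, edgeR adjusted p = 0.00148). In segment 6 it had 0.933, 0.816, 0.0427 and 0 CPM in D40, against 5.77, 17.2, 46.7 and 33.7 CPM in W40 (log2 change -6.09 ± 1.12 SE, edgeR adjusted p = 0.00584). LOC_Os01g47900 had 0.0848, 0.0314, 0.0533 and 0.0200 CPM in D40 segment 6, against 1.18, 3.53, 7.33 and 9.37 CPM in W40 segment 6 (log2 change -6.45 ± 0.78 SE, edgeR adjusted p = 6.21e-04). It was as low in D30 segment 5, with 0.121, 0.193, 0.0995 and 0 CPM, against 5.58, 13.2, 10.9 and 13.1 CPM in W30 segment 5 (log2 change -6.71 ± 0.86 SE, edgeR adjusted p = 5.73e-04). Both loci stayed under 1 CPM in each drought library compared, in either batch.

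LOC_Os07g37454 was all but silent in drought leaves. Its raw counts summed to 3 over the 20 D30 libraries and to 34 over the 20 D40 libraries. In segment 5 it had 1 count over the 4 D30 libraries, against 1396 over the 4 W30 libraries, and in segment 6 it had 20 counts over the D40 libraries, all in replicate 1, against 984 over the W40 libraries. Its call as rising from base to tip in D40 therefore rested on replicate 1, and no fold is given.

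LOC_Os04g59200 and LOC_Os11g12340 combined a drought difference with a wide spread between batches. LOC_Os04g59200 had 0.0283, 0.0941, 0.0853 and 0.0401 CPM in D40 segment 6, against 0.166, 5.63, 28.6 and 18.7 CPM in W40 segment 6 (log2 change -6.56 ± 1.07 SE, edgeR adjusted p = 0.00306). LOC_Os11g12340 had 0, 0.282, 0.107 and 0 CPM in D40 segment 6, against 0.298, 5.82, 35.4 and 20.3 CPM in W40 segment 6 (log2 change -6.28 ± 1.71 SE, edgeR adjusted p = 0.0290). In both loci the W40 pool of batch 1 was far below the W40 pools of batch 2 and only just above the D40 libraries. The LOC_Os11g12340 call at 40 °C did not pass the threshold without any 1 of W40 replicates 3 and 4 or D40 replicates 3 and 4, with edgeR adjusted p from 0.0655 to 0.125. The other 3 of the 10 were LOC_Os03g55010, LOC_Os07g35810 and LOC_Os06g19070, of which the last 2 are named only because their values were seen. Without D40 replicate 3 or 4 the 40 °C call of LOC_Os06g19070 had an edgeR adjusted p of 0.0566 or 0.0690. Over the 10, no D40 library passed 2.84 CPM in segment 6, while W40 libraries ran from 0.166 to 67.6 CPM. In segment 5 no D30 library passed 3.25 CPM, while W30 libraries ran from 0.394 to 100.3 CPM.

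**Figure D4:**
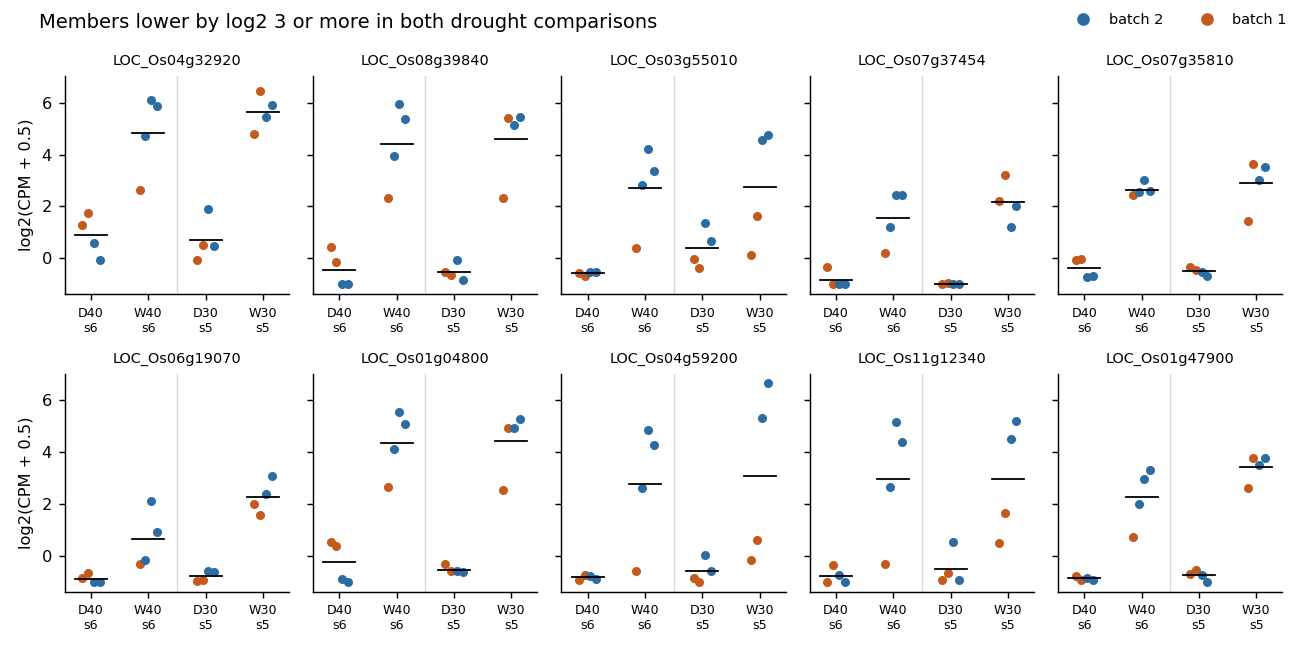
Log2(CPM + 0.5) per library (y axis) of the 10 members that were lower by log2 3 or more in both drought comparisons, in D40 and W40 at segment 6 and in D30 and W30 at segment 5. Points are libraries coloured by batch and lines are group means; drought libraries stay at or under 3.25 CPM, and the batch 1 library of W40 is the lowest of its group in all 10.

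The opposite direction was less common, and LOC_Os10g37110 was higher in both drought comparisons. It had 28.9, 32.8, 51.8 and 43.6 CPM in D40 segment 6, against 16.8, 27.1, 28.4 and 22.8 CPM in W40 segment 6 (log2 change 0.98 ± 0.16 SE, edgeR adjusted p = 0.00358). In segment 5 it had 41.1, 43.6, 55.1 and 54.1 CPM in D30, against 14.8, 26.9, 33.9 and 30.0 CPM in W30 (log2 change 0.89 ± 0.18 SE, edgeR adjusted p = 0.00797). The groups did not overlap in either comparison, and the climb from base to tip was kept in D30, W40 and D40, at log2 0.40, 0.43 and 0.51.

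Heat-shocked leaves differed in some members, whose shares over both batches were near or under those of all genes. At the tip of drought leaves, 24 members were lower and 14 higher in D40 than in D30, which is 12.0% and 7.0% of them, where 13.6% of all genes were lower and 14.5% higher. At the base of drought leaves, in segment 2, 22 were lower and 12 higher, or 11.0% and 6.0%, where 12.0% and 13.0% of all genes were. In segment 5 of well-watered leaves, 25 were lower and 8 higher in W40 than in W30, or 12.5% and 4.0%, where 14.4% and 12.7% of all genes were. Over both batches the share lower was thus near the background, and the share higher was below it. Within batch 2 alone the tip of drought leaves had 62 members lower (31%) and 33 higher (16.5%), where 18.3% and 19.3% of all genes were. In segment 5 of well-watered leaves batch 2 alone gave 62 lower (31%) and 21 higher (10.5%), where 17.7% and 21.8% of all genes were. In batch 2 the share lower was thus above the background at both places, among members chosen by their values at the W30 tip. Within batch 1 alone the drought tip had 24 lower and 19 higher, where 10.4% and 10.6% of all genes were, and segment 5 of well-watered leaves had 5 lower and 4 higher, where 0.764% and 2.29% were. At the base, batch 2 alone gave 41 lower and 30 higher, where 20.4% of all genes were called in each direction, and batch 1 alone 7 lower and 11 higher, where 5.01% and 6.81% were. Counts of members higher at the tip were 9 without D30 replicate 3, D30 replicate 4 or D40 replicate 3, and those lower at the base were 10 and 13 without D40 replicates 3 and 4. In segment 5, 13 were higher without W40 replicate 1, and 11, 16 and 15 were lower without W30 replicate 4, W40 replicate 2 and W40 replicate 4. The tip comparison in drought leaves and the segment 5 comparison in well-watered leaves share no library, and 12 members (6.0%) were lower with heat in both, 6 (3.0%) were higher in both and 0 moved in opposite directions. Over all genes tested in both, 7.67% were lower in both, 8.78% were higher in both and 8 genes moved in opposite directions.

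LOC_Os10g41710 was higher with heat in all 3 heat comparisons. It had 126, 185, 224 and 233 CPM in D40 segment 6, against 82.7, 67.9, 71.5 and 75.1 CPM in D30 segment 6 (log2 change 1.60 ± 0.17 SE, edgeR adjusted p = 1.61e-05). At the base it had 69.0, 101, 198 and 214 CPM in D40, against 37.1, 45.4, 55.4 and 57.0 CPM in D30 (log2 change 1.66 ± 0.22 SE, edgeR adjusted p = 2.17e-04). In well-watered leaves it had 99.2, 196, 206 and 168 CPM in W40 segment 5, against 48.3, 43.6, 71.9 and 66.7 CPM in W30 segment 5 (log2 change 1.57 ± 0.24 SE, edgeR adjusted p = 4.37e-04). The groups did not overlap in any of the 3. LOC_Os09g27040 had 8.47, 8.27, 9.98 and 7.23 CPM in D40 segment 6, against 3.26, 3.52, 1.72 and 3.02 CPM in D30 segment 6 (log2 change 1.84 ± 0.25 SE, edgeR adjusted p = 1.27e-04). At the base LOC_Os03g53020 was also higher with heat, with 19.1, 14.2, 24.7 and 13.7 CPM in D40 segment 2, against 7.63, 7.49, 11.4 and 10.3 CPM in D30 segment 2 (log2 change 1.20 ± 0.26 SE, edgeR adjusted p = 0.00436). LOC_Os03g53020 was also called at the tip of drought leaves, but not without any 1 of D30 replicates 1 and 2 or D40 replicates 1 and 3 (edgeR adjusted p from 0.0548 to 0.0809). The largest rise in well-watered leaves was that of LOC_Os01g52230, with 24.2, 50.4, 45.4 and 49.5 CPM in W40 segment 5, against 1.27, 4.04, 10.1 and 9.15 CPM in W30 segment 5 (log2 change 2.87 ± 0.31 SE, edgeR adjusted p = 2.63e-05). That locus was also higher with drought alone, at log2 1.58 in D30 against W30 in segment 5.

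In the other direction LOC_Os01g55750 was lower with heat in each comparison. It had 15.5, 11.8, 8.56 and 7.08 CPM in D40 segment 6, against 33.0, 29.3, 22.0 and 22.8 CPM in D30 segment 6 (log2 change -1.09 ± 0.18 SE, edgeR adjusted p = 4.92e-04). At the base it had 4.91, 3.61, 3.21 and 3.44 CPM in D40, against 8.40, 6.41, 9.16 and 9.03 CPM in D30 (log2 change -0.91 ± 0.19 SE, edgeR adjusted p = 0.00447). In segment 5 it had 12.2, 8.56, 9.69 and 9.03 CPM in W40, against 28.7, 31.2, 19.4 and 19.7 CPM in W30 (log2 change -1.02 ± 0.13 SE, edgeR adjusted p = 8.27e-05). Its climb towards the tip was still called in the same leaves, at log2 1.52 in D40 and 2.09 in W40. That slope was called lower in D40 than in W40, and so was the level in segment 6. LOC_Os01g02770 had 4.68, 4.22, 1.77 and 1.64 CPM in D40 segment 6, against 11.0, 9.87, 6.46 and 7.70 CPM in D30 segment 6 (log2 change -1.38 ± 0.17 SE, edgeR adjusted p = 5.97e-05). In segment 5 it had 5.24, 1.84, 1.82 and 2.14 CPM in W40, against 9.38, 12.6, 6.31 and 7.93 CPM in W30 (log2 change -1.36 ± 0.20 SE, edgeR adjusted p = 2.97e-04). Groups did not overlap in either comparison. LOC_Os03g11900 had 4.62, 8.22, 13.5 and 8.83 CPM in D40 segment 6, against 18.4, 17.0, 101 and 110.3 CPM in D30 segment 6 (log2 change -1.95 ± 0.41 SE, edgeR adjusted p = 0.00306). Its batches differed widely in D30, and D40 was lower in both. LOC_Os03g13640 had 4.13, 4.43, 2.11 and 2.79 CPM in D40 segment 2, against 7.39, 5.80, 11.1 and 10.5 CPM in D30 segment 2 (log2 change -1.07 ± 0.33 SE, edgeR adjusted p = 0.0290). That call did not pass the threshold without any 1 of D30 replicates 1 and 3 or D40 replicates 3 and 4, with edgeR adjusted p from 0.0639 to 0.0960.

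**Figure D5:**
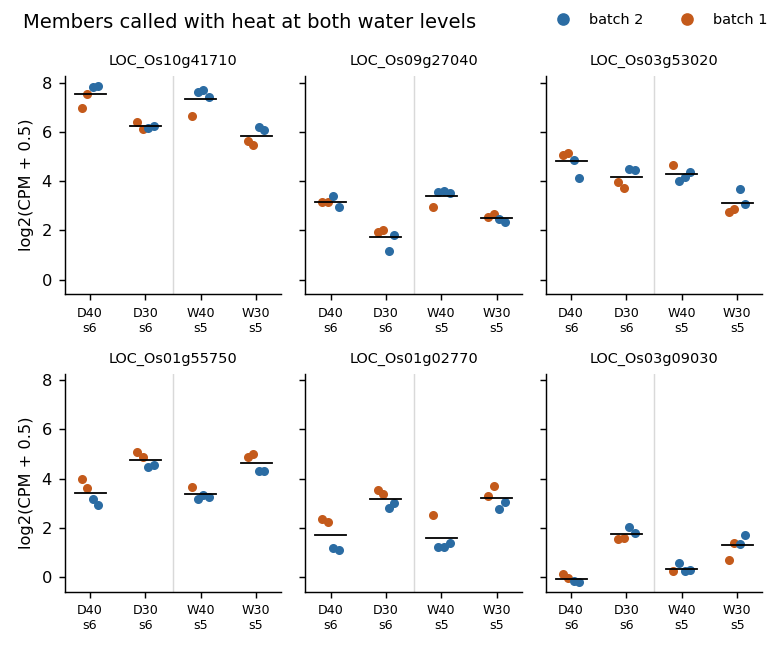
Log2(CPM + 0.5) per library (y axis) of 6 members called with heat at both water levels, in D40 and D30 at segment 6 and in W40 and W30 at segment 5. Points are libraries coloured by batch and lines are group means; LOC_Os10g41710, LOC_Os09g27040 and LOC_Os03g53020 are higher in the heated groups, and LOC_Os01g55750, LOC_Os01g02770 and LOC_Os03g09030 are lower.

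The slope itself differed in few members between stressed treatments. Between D40 and D30, 0 members had a higher or lower slope, where 0.0837% and 0.105% of all genes did (edgeR). At an unadjusted p under 0.05 there were 29 members, and the share of all genes at that limit was not taken. DESeq2 called 0 higher and 1 lower, where 0.293% and 0.356% of all genes were. The nearest to a call was LOC_Os03g09070, with 0.255, 0.408, 0.363 and 0.341 CPM in D40 segment 6, against 0.777, 0.512, 0.328 and 0.205 CPM in D40 segment 2. In D30 it had 0.812, 0.186, 1.79 and 2.02 CPM in segment 6, against 0, 0.111, 0.455 and 0.181 CPM in segment 2. Its slope was lower in D40 by log2 2.92 with an edgeR adjusted p of 0.0564, so a difference was not established. Without D30 replicate 2, D40 replicate 3 or D40 replicate 4 that adjusted p was 0.0421, 0.0466 or 0.0308. Between D40 and W40, 6 members had a higher slope in D40 and 13 a lower one, where 3.6% and 3.45% of all genes did. That is 3.0% and 6.5% of the members. Within batch 2 alone these counts were 12 and 44, or 6.0% and 22%, where 7.94% and 7.06% of all genes were called. Within batch 1 alone they were 6 and 2, where 0.376% and 0.893% of all genes were. They were 16 and 26 without W40 replicate 1, 2 and 4 without W40 replicate 3, and 3 and 6 without W40 replicate 4, while 8 members were lower without D40 replicate 4.

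Among the members called with at least 5 CPM and groups that did not overlap, LOC_Os04g47360 had the lowest of these differences in slope (log2 change -3.85 ± 0.80 SE, edgeR adjusted p = 0.00151). It had 23.5, 19.6, 1.05 and 1.11 CPM in D40 segment 6, against 16.4, 15.2, 1.89 and 17.4 CPM in D40 segment 2. In W40 it had 139, 15.5, 10.6 and 16.5 CPM in segment 6, against 40.1, 0.604, 0.560 and 0.874 CPM in segment 2. Each W40 pool rose and the batch 2 pools of D40 fell. LOC_Os07g12890, shown above in W40, had 9.16, 14.3, 2.46 and 2.47 CPM in D40 segment 6, against 10.2, 7.93, 3.67 and 13.5 CPM in D40 segment 2. Its slope was lower in D40 than in W40 (difference in log2 change -3.76 ± 0.76 SE, edgeR adjusted p = 0.00115). Of its D40 pools, replicate 2 alone was higher at the tip. LOC_Os01g66100 went the other way (log2 change 2.01 ± 0.33 SE, edgeR adjusted p = 8.14e-05). It had 6.60, 3.91, 28.1 and 25.5 CPM in D40 segment 6, against 0.699, 0.369, 6.43 and 11.2 CPM in D40 segment 2. In W40 it had 9.44, 38.9, 19.8 and 20.9 CPM in segment 6, against 8.61, 24.0, 12.7 and 17.4 CPM in segment 2. Each pool of both treatments was higher at the tip. The ratio of tip to base was larger in every D40 pool than in any W40 pool. LOC_Os10g42960 had 3.82, 6.27, 18.4 and 10.0 CPM in D40 segment 6, against 1.90, 3.07, 9.04 and 2.88 CPM in D40 segment 2. Its slope was higher in D40 than in W40 (difference in log2 change 1.17 ± 0.30 SE, edgeR adjusted p = 0.0116). That call did not pass without W40 replicate 3 or D40 replicate 4, with edgeR adjusted p of 0.0941 and 0.0670.

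In the 5 comparisons of heat or drought, 107 of the 200 members, or 53.5%, were called in none, against 48.2% of the genes tested in all 5. A missing call does not show that a member did not respond. Of those 107, 80 were called higher at the tip in D30, W40 and D40. The share of all genes meeting both conditions was not taken, so nothing is read from that count. The most abundant member per length was among the 80. LOC_Os01g68300 averaged 2168 in the authors' deposited batch-corrected FPKM, a unit scaled to gene length, in W30 segment 6. In CPM it had 456, 591, 2019 and 1745 in D40 segment 6, against 157, 155, 683 and 839 in D40 segment 2 (log2 change 1.55 ± 0.22 SE, edgeR adjusted p = 2.78e-07). In W40 it had 1247, 1028, 864 and 767 CPM in segment 6, against 162, 329.9, 371 and 250.2 CPM in segment 2 (log2 change 1.71 ± 0.22 SE, edgeR adjusted p = 2.13e-08). Each pool was higher at the tip, and batch 2 stood above batch 1 in D40. LOC_Os06g08320 averaged 1546 FPKM and LOC_Os03g29460 averaged 364 FPKM in W30 segment 6. The length implied by the deposited values was 66.2 bases for LOC_Os06g08320, so its FPKM rests on a very short counted length. Both loci climbed in D40, at log2 0.84 and 0.77, where the changes were 0.20 and 0.18 in batch 2 and 1.40 and 1.29 in batch 1.

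The members lay on all 12 chromosomes, as read from their identifiers, with between 9 and 32 on each and shares close to those of the ranked genes. Chromosomes 1 and 3 held 32 each, which is 16% of the list, against 14.2% and 13.8% of the ranked genes. Counted lengths implied by the deposited FPKM had a median of 2287 bases in the members, against 3522 bases in the ranked genes. Only 10 members had another within 50 locus numbers on the same chromosome, in 5 pairs. The pair of LOC_Os04g59200 and LOC_Os04g59210 was lower in both drought comparisons, and LOC_Os04g59210 had 0.198, 0.220, 1.46 and 1.19 CPM in D40 segment 6, against 0.365, 7.94, 18.8 and 10.3 CPM in W40 segment 6 (log2 change -2.36 ± 0.53 SE, edgeR adjusted p = 0.0135). Without D40 replicate 3 or 4 the edgeR adjusted p of LOC_Os04g59210 was 0.0626 or 0.0800. LOC_Os02g09980 and LOC_Os02g10000 were both lower with heat at the tip of drought leaves. LOC_Os02g09980 had 1.47, 1.15, 1.05 and 1.34 CPM in D40, against 3.58, 4.37, 3.31 and 2.61 CPM in D30 (log2 change -1.22 ± 0.27 SE, edgeR adjusted p = 0.00416). LOC_Os02g10000 had 0.834, 0.471, 0.565 and 0.531 CPM in D40, against 1.74, 1.46, 5.20 and 5.38 CPM in D30 (log2 change -1.90 ± 0.44 SE, edgeR adjusted p = 0.00583). In the other 3 pairs a single neighbour was called in each comparison given here, and the difference between neighbours was not tested. LOC_Os03g55010 was called lower with drought in both comparisons, while LOC_Os03g55020 had log2 changes of -1.86 at 40 °C and -1.51 at 30 °C with edgeR adjusted p of 0.238 and 0.302. LOC_Os03g09030 was called lower with heat in all 3 comparisons. At the drought tip LOC_Os03g09070 had a log2 change with heat of -1.26 with an edgeR adjusted p of 0.0655. Without D30 replicate 2 or D40 replicate 2 that adjusted p was 0.0149 or 0.0364. With drought the calls were the other way round, since LOC_Os03g09070 was called lower in both comparisons and LOC_Os03g09030 in neither. LOC_Os06g04340 was called lower with heat at the tip of drought leaves and in segment 5 of well-watered leaves, where LOC_Os06g04290 had log2 changes of 0.07 and -0.01. The LOC_Os06g04340 call at the tip did not pass without any 1 of 6 pools, all but D30 replicate 3 and D40 replicate 2 (edgeR adjusted p from 0.0600 to 0.111), and its segment 5 call did not pass without W30 replicate 3 or 4 or W40 replicate 2 or 4 (from 0.0579 to 0.0736). Whether reads were shared between neighbouring loci was not tested.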

How the data were processed

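Poly(A) RNA of 80 rice leaf libraries was sequenced as paired reads from Nextera XT libraries, per the labels' protocols. Per the submitters' processing notes, Picard 3.1.0, featureCounts 2.0.6 and HISAT2 2.2.1 were used; no genome build is named there. Per the file headers, 3 tables were deposited by the authors: raw counts, counts after batch correction, and FPKM after batch correction. Those corrected values, estimated counts deposited by the authors, were rounded here, and the correction method is not described. Among raw counts between 1 and 20, 76.9% were even, as when both reads of a pair are counted, so counts overstate independent fragments and how far duplicates matter was not tested. All sample columns were used, so 0 were left out.

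The members follow from the rule in the opening. Members, lists and tests were chosen with earlier results of these data known. CPM values here are scaled to the raw library total, and fitted changes use TMM scaling. Tests used edgeR 4.0.16 in R 4.3.3 (quasi-likelihood F test, filterByExpr with a minimum count of 10 and total of 15, Benjamini-Hochberg over all genes tested, threshold 0.05), and all 200 members passed the filter. Comparisons between segments fitted leaf pool and segment by treatment to 80 libraries. Comparisons between treatments fitted treatment and batch to the 16 libraries of 1 segment. Standard errors are the absolute log2 change over the square root of F, approximate above all for loci near 0. Segments of a pool are matched by the labels' protocols. Their deviations from group means had a median correlation of 0.84 within pools and -0.64 between pools. Centring each group on its own mean pulls the value between pools below 0, and batch was not removed from either value. Separate leaf pools were the replicates, and no 2 libraries of a group agreed within sampling noise (chi-square over degrees of freedom of at least 9.57). The procedure was run on simulated counts that held no leaf pool or batch differences. That run therefore cannot show how the tests behave where such differences are present, as here.

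Loci were named by a fixed rule. It took the 10 highest by the rule and the ranks next to the limit, and the 3 highest in FPKM. It took neighbouring pairs, the 3 lowest and 3 highest slopes in D40, and per comparison up to 2 each way past the threshold with at least 5 CPM and groups that did not overlap. No gene list was used, since no table annotates the identifiers. Alternatives were DESeq2 1.42.0, its size factors in edgeR, no filter, batch-corrected counts, each batch alone, another blocking and leaving out each pool. Figures were drawn with matplotlib.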

Additional observations from a re-analysis of the deposited data

Results flagged for a closer look

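The slope from base to tip differed between D40 and W40 in 19 members by a test of the difference itself (edgeR), with 6 higher in D40 and 13 lower. Among those named by the rule, LOC_Os01g66100 had a slope higher by log2 2.01 in D40 and LOC_Os10g42960 one higher by 1.17. The difference in slope of D40 relative to W40 was log2 -3.76 for LOC_Os07g12890 and -3.85 for LOC_Os04g47360.

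The slope also differed between the labelled batches. In D40 it was lower in batch 2 for 61 members and higher for 2, in D30 lower for 27 and higher for 6, and in W40 lower for 22 and higher for 18. The background shares of this test stand beside these counts in the report. The labels do not say what distinguishes the batches, and their part in these differences was not tested.

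Of 137 groups of 4 libraries checked, 10 held a library far from the other 3, and chance gives about 1 in 20. At the low end were LOC_Os08g39840 with 3.92 CPM in W30 segment 6 replicate 1 and LOC_Os04g47360 with 1.89 CPM in D40 segment 2 replicate 3. In replicate 1 of W40, LOC_Os04g47360 was high with 40.1 CPM in segment 2 and 139 CPM in segment 6, as were LOC_Os07g12890 with 13.3 CPM in segment 2 and LOC_Os01g02770 with 5.24 CPM in segment 5. Replicate 2 held LOC_Os09g32290 at 82.3 CPM in D30 segment 6, and replicate 2 of D40 held it at 76.5 CPM in segment 6. LOC_Os01g04800 reached 0.302 CPM in D30 segment 5 replicate 1, and LOC_Os10g42960 reached 9.04 CPM in D40 segment 2 replicate 3.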

How the results depend on the processing

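Counts of members called are given as higher and lower. The 3 slopes in stressed leaves kept their direction under the alternatives tried. Without the leaf pool as a block (no replicate block), slopes were called higher in 44 members in D30, 99 in W40 and 74 in D40, segment 5 against segment 3 of W30 in 2, and the slope difference of D40 and W40 in 0 and 0. Across treatments the replicate numbers did not pair the pools: deviations of same-numbered libraries correlated between -0.56 and 0.68, but between -0.38 and 0.20 within batches. With the replicate block, heat gave 9 members higher at the drought tip, 13 lower at the drought base and 11 lower in well-watered segment 5, and drought gave 20 lower at 40 °C. Batch 2 alone gave 78 higher for the D40 slope, 1 lower for the slope difference of D40 and D30, 12 and 44 for that of D40 and W40, 33 and 62 for heat at the drought tip, 30 and 41 at the drought base, 21 and 62 in well-watered segment 5, 19 and 93 for drought at 40 °C, and 11 and 91 at 30 °C. Batch 1 alone gave 107 higher for the W40 slope, 6 and 5 for the slope difference of D40 and D30, 2 lower for that of D40 and W40, 7 lower for heat at the drought base, 4 and 5 in well-watered segment 5, 1 and 1 for drought at 40 °C, and 12 lower at 30 °C. DESeq2 called 1 lower for the slope difference of D40 and D30, 21 lower for that of D40 and W40, 14 higher for heat in well-watered segment 5 and 9 higher for drought at 40 °C. On batch-corrected counts, 1 was lower for the slope difference of D40 and D30, and 6 for that of D40 and W40. Leaving out 1 pool gave 26 to 65 for segment 5 against segment 3 in W30, 0 to 1 each way for the slope difference of D40 and D30, and 2 to 16 higher and 4 to 26 lower for that of D40 and W40. It gave 9 to 12 higher for heat at the drought tip, 10 to 19 lower at the drought base, 8 to 13 higher and 11 to 32 lower in well-watered segment 5, 3 to 12 higher and 12 to 51 lower for drought at 40 °C, and 17 to 38 lower at 30 °C. The cause of these shifts was not tested, beyond fewer libraries within a batch or without a pool.

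Among named loci, the changes under alternatives kept their side of the threshold in 2293 of 2573 cases and gained the call in 25. In 7 the direction reversed where the main or the alternative fit was called, and the rest lost the call. A change of direction where neither fit was called counts among the 2293. In batch 1 alone the W40 slope was -0.17 for LOC_Os09g32290, -0.20 for LOC_Os03g11900 and -0.11 for LOC_Os06g04340. The D30 slope of LOC_Os04g59200 was -3.47 in batch 1 alone and -2.80 on batch-corrected counts, and that of LOC_Os04g59210 was -0.38 in batch 1 alone. LOC_Os07g37454 had D40 slopes between -0.077, without D40 replicate 1, and 5.56 when 1 pool was left out, and batch 2 gave no value since it was listed at 0 there. Ranking with a pseudocount of 1 CPM kept 176 of the 200 members, TMM scaling 158, a minimum of 5 CPM 162, and the mean over pools in place of the smallest value 47. Loci with few counts limit the list, since 3 counts in a library are the floor used.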
